A study of Mus musculus with 6 samples.

Results

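Tumours grown under the skin of C57BL/6J mice from Hep1-6, a mouse hepatoma line, were profiled by RNA sequencing. The mice were fed a high cholesterol diet (3 tumours, HCD 1 to HCD 3) or a normal diet (3 tumours, ND 1 to ND 3), and the implanted line, the strain and the site were the same in both. The composition of the diets, the time on diet, the age of the mice and whether each tumour had its own mouse are not stated in the labels. The p-values therefore rest on the spread between 6 tumour samples, which may be partly technical. The genes described here are 37 enzymes, carriers and regulators of fatty acid oxidation and ketone body metabolism, matched by symbol among the 34745 genes of the deposited table. All 37 had exactly 1 row each.

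Long-chain fatty acids are joined to coenzyme A by acyl-CoA synthetases and enter mitochondria as carnitine esters, through carnitine palmitoyltransferases on both membranes and a carrier between them. In the matrix, each round of beta-oxidation runs through a dehydrogenase, a hydratase, a second dehydrogenase and a thiolase, and the electrons of the first step pass through electron transfer flavoprotein to the respiratory chain. Peroxisomes run a parallel pathway on very long and branched chains, with oxidases in place of the first dehydrogenases. In liver the acetyl-CoA formed can be turned into ketone bodies, which other tissues, and many tumours, burn.

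Values are FPKM (fragments scaled for gene length and library size), so levels of different genes can be compared per length, but only roughly. Exon lengths merged over all annotated transcripts of a gene (GENCODE M21) are, for example, 8730 bases for Hadha and 1516 for Acaa2. If such lengths were used, genes with long, little-used exons have understated levels, which limits every comparison of level between genes below. The value steps implied about 20351540 to 20917060 fragments in HCD libraries and 20621740 to 26230720 in ND libraries. Hepatoma RNA was plain in every library: Alb (serum albumin) was at 1469, 1176 and 1672 FPKM in HCD 1 to HCD 3 and at 1553, 1299 and 1272 FPKM in ND 1 to ND 3. Of 8 hepatocyte and hepatoma markers, Serpina1a was below the level for testing, at a mean of 0.0531 FPKM in HCD and 0.0515 FPKM in ND. Skeletal muscle RNA was uneven. The summed level of 12 muscle markers was 973, 99.1 and 7.74 FPKM in HCD 1 to HCD 3 and 6.53, 830 and 14.7 FPKM in ND 1 to ND 3, while no marker of that list was at 0 in any library. In bulk tumour RNA, fewer cells of a type and less RNA per cell cannot be told apart.

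The pathway was expressed at a moderate level with a wide range between members. Mean levels over the 6 libraries ran from 0.119 FPKM for Acox2 to 216 FPKM for Acsl5, with a median of 8.34 FPKM over the 37 genes. Of these, 35 had a mean of at least 0.5 FPKM and were tested, and Etfb and Acox2 lay below that level. The tested members varied little between tumours: the coefficient of variation over the 6 libraries had a median of 7.87% for the 35 members, against 9.68% for the 11421 tested genes within the same range of levels. It was lowest for Hadhb (3.63%) and highest for Pdk4 (50.7%), followed by Bdh1 (30.3%) and Acsl1 (19.0%).

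**Figure D1:**
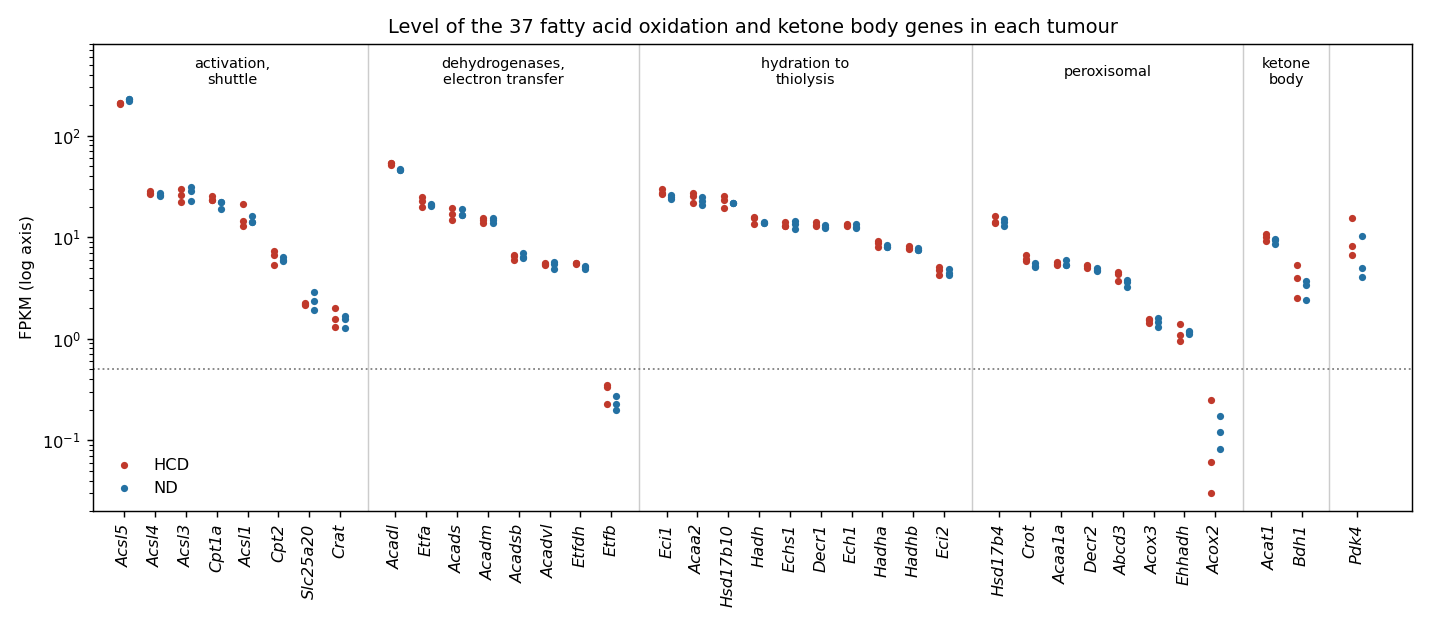
FPKM (log axis) of the 37 genes, grouped by role and ordered by mean within each role, with 1 point per library (HCD in red, ND in blue). Acsl5 stands at 203 FPKM or more in all 6 libraries, Etfb and Acox2 lie under the dotted line at 0.5 FPKM, and for most genes the HCD and ND points sit together.

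Between diets the members' levels were nearly alike, and no member was called. The limma fit over all 13417 tested genes called 0 genes at an adjusted p under 0.05 (0.0% of genes tested), with 789 genes (5.88%) at an unadjusted p under 0.05. Of the 35 members 4 (11.4%) were past that unadjusted level: Acadl, Crot and Eci1, higher in HCD (2.56% of all tested genes were), and Acsl5, lower in HCD (3.32%). Among members the lowest adjusted p was 0.794. All differences below are the HCD mean minus the ND mean of log2(FPKM + 1), a scale on which the change of low genes is understated. The median difference over the 35 members was 0.07, against 0.02 over all genes tested, and 27 members (77.1%) had a higher mean in HCD, where 55.7% of all tested genes did. Without HCD 1 the median difference of the members was 0.03, with 25 of 35 higher (71.4%, against 52.5% of all tested genes). The 95% interval was contained between -0.5 and 0.5 for 32 of 35 members, the exceptions being Acsl1, Bdh1 and Pdk4, and for 74.7% of all tested genes.

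In 6 of the 35 members (17.1%) the HCD and ND libraries did not overlap, where 12.1% of all tested genes had no overlap. Acadl, Cpt1a, Eci1, Etfdh and Crot lay higher in all HCD libraries (14.3% of members, with a background of 5.98%), and Acsl5 lay lower (background 6.13%). These 6 are described with their pathway step below, and none passed the test across all genes.

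**Figure D2:**
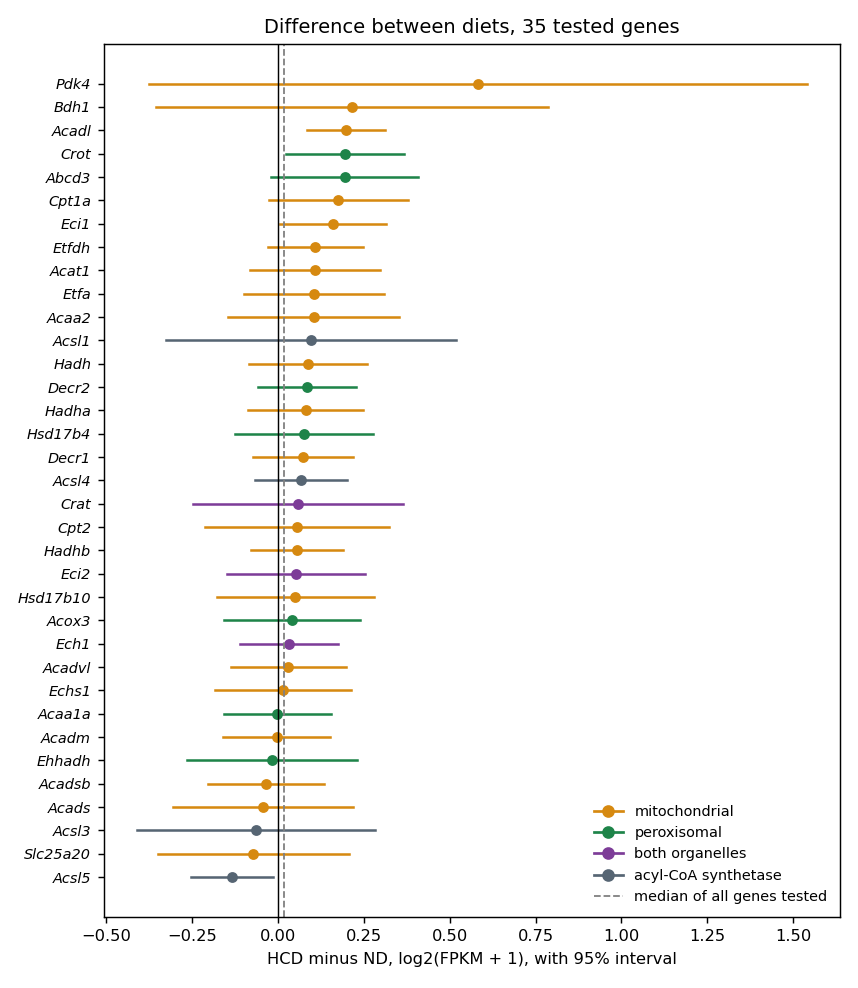
HCD minus ND difference on the log2(FPKM + 1) scale with its 95% interval from limma (n = 3 libraries per diet) for the 35 tested members, ordered by size and coloured by compartment. Most points lie slightly right of 0 and all but Pdk4 within 0.25 of it, Pdk4 has the largest difference (0.58) and the widest interval, and Acsl5 has the lowest difference (-0.13).

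Activation was dominated by Acsl5, a long-chain acyl-CoA synthetase of mitochondria and endoplasmic reticulum (ENSMUSG00000024981, mm10 chr19:55251938-55297720). It was at 203, 208 and 209 FPKM in HCD 1 to HCD 3 and at 232, 227 and 221 FPKM in ND 1 to ND 3. All HCD libraries lay below all ND libraries, and the mean was 206 ± 3.13 FPKM in HCD and 227 ± 5.51 FPKM in ND (SD, n = 3 each). The difference was -0.13 (SE 0.049, 95% interval -0.25 to -0.02) with a limma adjusted p of 0.794, and it stayed between -0.15 and -0.12 with each library left out in turn. Acsl5 alone made up 30.3% to 32.7% of the members' summed FPKM in HCD and 34.9% to 36.0% in ND, and its mean level was 4.36 times that of Acadl, the next member. In the annotation 8.31% of its exon bases are shared on the opposite strand with Zdhhc6.

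The other synthetases showed no separation by diet. Acsl4, which prefers arachidonic acid, averaged 27.4 ± 1.06 FPKM in HCD and 26.1 ± 0.985 FPKM in ND (SD, n = 3 each). Acsl3, the synthetase of lipid droplets and endoplasmic reticulum, averaged 26.1 ± 3.72 FPKM in HCD and 27.3 ± 4.11 FPKM in ND (SD, n = 3 each). Acsl1, the main synthetase of normal liver, fat and heart, was at 21.1, 13.02 and 14.4 FPKM in HCD 1 to HCD 3 and at 16.1, 14.1 and 14.1 FPKM in ND 1 to ND 3, so that its higher HCD mean rested on HCD 1. Its difference of 0.10 was -0.10 without HCD 1.

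Cpt1a, the outer-membrane carnitine palmitoyltransferase that sets the rate of entry into mitochondria (ENSMUSG00000024900, mm10 chr19:3322334-3385733), was at 23.2, 25.4 and 23.2 FPKM in HCD 1 to HCD 3 and at 22.4, 18.8 and 22.1 FPKM in ND 1 to ND 3. The diets did not overlap, but ND 1 and ND 3 lay close under the HCD libraries and ND 2 was the lowest. The mean was 23.9 ± 1.26 FPKM in HCD and 21.1 ± 2.01 FPKM in ND (SD, n = 3 each), a difference of 0.18 (SE 0.083, limma adjusted p = 0.794), and without ND 2 it was 0.10. Downstream members were lower in level: Cpt2, the inner-membrane transferase, averaged 6.38 ± 1.02 FPKM in HCD and 6.06 ± 0.258 FPKM in ND, and Slc25a20, the carnitine-acylcarnitine carrier, 2.20 ± 0.0475 and 2.39 ± 0.488 FPKM (SD, n = 3 each). Cpt1a exceeded Cpt2 by 3.19 to 4.82 times within a library. Crat, the carnitine acetyltransferase found in both mitochondria and peroxisomes, was the lowest of this step, at 2.00, 1.55 and 1.30 FPKM in HCD 1 to HCD 3 and at 1.57, 1.67 and 1.26 FPKM in ND 1 to ND 3, with full overlap.

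Other carnitine palmitoyltransferases, which are not among the 37 genes, showed that the brain-type Cpt1c was also abundant: it averaged 15.9 ± 1.45 FPKM in HCD and 15.6 ± 1.27 FPKM in ND (SD, n = 3 each), with Cpt1a 1.22 to 1.78 times higher within a library. The muscle form Cpt1b was at 0.0368, 0.195 and 0.0238 FPKM in HCD 1 to HCD 3 and at 0.153, 0.209 and 0.145 FPKM in ND 1 to ND 3, near 0 also in HCD 1 and ND 2, where muscle markers were highest. In the annotation 81.4% of the exon bases of Cpt1b are shared on the same strand with the readthrough gene Gm44502, so its level is uncertain.

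Promoter windows are shown for Acadl and Cpt1a, which were higher in all HCD libraries, and for Acsl5, which was lower. Also shown are those of Pdk4, the most variable tested member, and of Hadha and Hadhb, which share a start region. Each is the 250 bases before the RefSeq start site on GRCm38.p6 (the region between both starts for Hadha and Hadhb), written 5′ to 3′ on the gene's strand, with capitals for 3 motifs on either strand. These are the GC box, GGGCGG, the promoter box CCAAT, and the core recognised by many nuclear receptors, AGGTCA.
Acadl, chr1:66863310-66863559, minus strand: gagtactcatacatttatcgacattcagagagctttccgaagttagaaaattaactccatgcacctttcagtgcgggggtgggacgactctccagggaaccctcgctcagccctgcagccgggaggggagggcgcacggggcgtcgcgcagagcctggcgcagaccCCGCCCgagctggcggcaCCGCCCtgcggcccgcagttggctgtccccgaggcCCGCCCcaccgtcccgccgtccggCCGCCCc
Cpt1a, chr19:3323051-3323300, plus strand: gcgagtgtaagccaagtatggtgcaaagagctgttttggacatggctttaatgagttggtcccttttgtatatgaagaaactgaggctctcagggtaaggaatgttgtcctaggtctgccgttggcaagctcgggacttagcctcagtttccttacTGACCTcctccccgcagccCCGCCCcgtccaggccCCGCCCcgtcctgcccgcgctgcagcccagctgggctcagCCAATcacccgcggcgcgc
Acsl5, chr19:55253119-55253368, plus strand: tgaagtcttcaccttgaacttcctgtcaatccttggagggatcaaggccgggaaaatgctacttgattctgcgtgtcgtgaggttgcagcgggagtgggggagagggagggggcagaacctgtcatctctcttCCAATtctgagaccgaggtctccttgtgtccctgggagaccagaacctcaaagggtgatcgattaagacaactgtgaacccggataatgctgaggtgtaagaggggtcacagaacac
Pdk4, chr6:5496279-5496528, minus strand: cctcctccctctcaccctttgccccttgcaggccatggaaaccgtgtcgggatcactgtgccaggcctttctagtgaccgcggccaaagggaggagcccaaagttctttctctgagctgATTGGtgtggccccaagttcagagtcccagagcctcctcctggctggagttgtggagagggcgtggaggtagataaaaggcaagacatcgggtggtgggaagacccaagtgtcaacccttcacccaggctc
Hadha-Hadhb, chr5:30154981-30155252, plus strand: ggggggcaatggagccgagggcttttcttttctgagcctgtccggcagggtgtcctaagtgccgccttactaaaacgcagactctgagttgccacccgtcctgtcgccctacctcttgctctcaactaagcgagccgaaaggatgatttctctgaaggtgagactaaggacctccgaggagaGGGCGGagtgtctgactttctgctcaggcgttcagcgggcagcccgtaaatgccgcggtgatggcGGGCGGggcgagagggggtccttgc

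Of the 37 genes 32 matched a window by symbol, in 36 windows. GGGCGG was found for 22 of the 32 genes (68.75%), against 62.4% of the 9498 tested genes with a window. It was found for 35.4% of all 27025 genes with a RefSeq window, whether or not they are in the deposited table. CCAAT was found for 15 (46.9%), against 39.9% of tested and 37.5% of all genes. AGGTCA was found for 4 (12.5%), against 13.1% and 15.8%, and the 4 were the mitochondrial members Acadm, Acadvl, Cpt1a and Echs1. The direct repeat of this core with 1 base between, the classical element of peroxisome proliferator-activated receptors, was in 0 of the members' windows and in 0.042% of tested and 0.041% of all genes, both strands searched. Acadl has 4 GC boxes in its window and Cpt1a has 2, while Acsl5 and Pdk4 have 0. These matches are descriptions of the windows only.

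The acyl-CoA dehydrogenases take the first electrons, each from a range of chain lengths. Acadl, the long-chain enzyme (ENSMUSG00000026003, mm10 chr1:66830839-66863277), was the highest, at 53.3, 54.4 and 51.8 FPKM in HCD 1 to HCD 3 and at 46.3, 46.9 and 45.5 FPKM in ND 1 to ND 3. The gap between the groups was wider than the range within either. The mean was 53.2 ± 1.29 FPKM in HCD and 46.2 ± 0.712 FPKM in ND (SD, n = 3 each). The difference of 0.20 (SE 0.047, 95% interval 0.08 to 0.31) ranked 52 by p among 13417 genes, with a limma adjusted p of 0.794. It stayed between 0.18 and 0.22 with each library left out in turn and was 0.21 without HCD 1 and ND 2 together, the libraries with the most muscle RNA.

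The dehydrogenases for other chain lengths lay lower, and their HCD and ND libraries overlapped. Acads, for short chains, averaged 16.9 ± 2.24 FPKM in HCD and 17.4 ± 1.46 FPKM in ND. Acadm, for medium chains, averaged 14.7 ± 0.730 FPKM in HCD and 14.7 ± 0.759 FPKM in ND (SD, n = 3 each), with a 95% interval of the difference from -0.16 to 0.15. Acadsb, which acts on short branched chains, was at 6.37 ± 0.360 and 6.56 ± 0.3999 FPKM, and Acadvl, for very long chains, at 5.41 ± 0.145 and 5.29 ± 0.396 FPKM, in HCD and ND (SD, n = 3 each). The order Acadl, Acads, Acadm was the same in the means of both diets, but Acads and Acadm overlapped in their ranges. The low level of Acadvl is uncertain, since 42.9% of its exon bases are shared with Dvl2 on the opposite strand.

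Electron transfer flavoprotein is a dimer of the products of Etfa and Etfb and passes electrons to the dehydrogenase encoded by Etfdh. Etfdh (ENSMUSG00000027809, mm10 chr3:79603788-79629500) was at 5.53, 5.61 and 5.50 FPKM in HCD 1 to HCD 3 and at 5.25, 4.86 and 5.11 FPKM in ND 1 to ND 3. Its groups did not overlap, with a difference of 0.11 (SE 0.057, limma adjusted p = 0.794). Etfa was at 24.7, 22.8 and 19.8 FPKM in HCD 1 to HCD 3 and at 20.4, 21.0 and 20.7 FPKM in ND 1 to ND 3, so HCD 3 lay below every ND library. Etfb was listed at 0.333, 0.351 and 0.229 FPKM in HCD 1 to HCD 3 and at 0.227, 0.198 and 0.271 FPKM in ND 1 to ND 3. The subunits thus differed 65.0 to 107 times in level within a library. In the annotation 58.3% of the exon bases of Etfb (chr7:43444083-43457800) are shared on the same strand with the genes Gm45233 and Mir7051, and the treatment of shared bases in the authors' counting is not stated, so the low value of Etfb is uncertain.

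The 10 genes of the later steps, from hydratases to thiolases with the auxiliary isomerases and reductase, had mean levels of 4.59 to 26.2 FPKM. All 10 had a higher mean in HCD, where 55.7% of all tested genes did, with a median difference of 0.06. However, Echs1 turned under upper-quartile scaling, without HCD 3, without ND 2 and without HCD 1 and ND 2 together. Hsd17b10 turned without HCD 1 and without both. In 1 of the 10, Eci1, the groups did not overlap (10.0%, against 12.1% of all tested genes). Eci1, the isomerase that prepares unsaturated chains (ENSMUSG00000024132, mm10 chr17:24426641-24439348), was at 29.6, 26.7 and 26.9 FPKM in HCD 1 to HCD 3 and at 23.6, 25.8 and 24.6 FPKM in ND 1 to ND 3. HCD 1 stood above the rest, and HCD 2 lay just over ND 2. The difference was 0.16 (SE 0.064, limma adjusted p = 0.794), and 0.12 without HCD 1.

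Hadha and Hadhb, the subunits of the trifunctional protein that carries out the last 3 steps on long chains, start close together on opposite strands, 272 bases apart in RefSeq. Hadha was at 9.25, 8.67 and 7.92 FPKM in HCD 1 to HCD 3 and at 7.93, 8.31 and 7.99 FPKM in ND 1 to ND 3. Hadhb was at 8.20, 7.77 and 7.67 FPKM in HCD 1 to HCD 3 and at 7.45, 7.44 and 7.74 FPKM in ND 1 to ND 3. Their levels were close in every tumour, with Hadha 1.03 to 1.13 times Hadhb. Of the 50-base stretches of Hadhb transcripts 19.7% also occur in other annotated genes, mostly Gm13910, so part of its reads may be divided.

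Of the other genes of these steps, Acaa2, Hsd17b10, Hadh, Echs1, Decr1 and Ech1 had higher mean FPKM than Hadha and Hadhb, and Eci2 had a lower one. This order depends on the gene lengths used: in fragments per library Acaa2, at about 653 to 988, lay below Hadha, at about 1438 to 1902. Acaa2, the mitochondrial thiolase, averaged 24.6 ± 2.81 FPKM in HCD and 22.8 ± 1.98 FPKM in ND, and Hsd17b10, a hydroxyacyl-CoA dehydrogenase that also belongs to mitochondrial RNase P, 22.7 ± 2.89 and 21.7 ± 0.189 FPKM (SD, n = 3 each). Hadh, Echs1, Decr1 and Ech1 had means between 12.7 and 14.9 FPKM in either diet. Eci2, an isomerase found in both organelles, was the lowest of this step, at 4.76, 4.25 and 5.07 FPKM in HCD 1 to HCD 3 and at 4.85, 4.21 and 4.40 FPKM in ND 1 to ND 3. None of these 7 separated the diets.

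Peroxisomal members had a lower median level than mitochondrial ones in every tumour. The median over the 8 peroxisomal genes was 4.799, 4.75 and 4.48 FPKM in HCD 1 to HCD 3 and 4.30, 4.21 and 4.01 FPKM in ND 1 to ND 3. The median over the 22 mitochondrial genes was 13.6, 11.01 and 11.6 FPKM in HCD 1 to HCD 3 and 10.8, 11.1 and 10.5 FPKM in ND 1 to ND 3. On the log2(FPKM + 1) scale the mitochondrial median exceeded the peroxisomal one by 1.05 to 1.33 in HCD libraries and by 1.16 to 1.22 in ND libraries, so that this gap overlapped between diets. Means of 10 FPKM or more were found for 11 of 22 mitochondrial members and 1 of 8 peroxisomal members, Hsd17b4. Acsl synthetases and the 3 members placed in both organelles, Ech1, Eci2 and Crat, were left out of these medians.

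The diet difference had a median of 0.08 over the 21 tested mitochondrial members, with 17 (81.0%) higher in HCD. It was also 0.08 over the 7 tested peroxisomal members, with 5 (71.4%) higher, where 55.7% of all tested genes were. A difference between the compartments in their response was not tested. Without HCD 1 both medians were 0.03, and without ND 1 the peroxisomal median was 0.02. Summed levels of the mitochondrial members were 336, 300 and 308 FPKM in HCD 1 to HCD 3 and 289, 292 and 286 FPKM in ND 1 to ND 3. Those of the peroxisomal members were 41.0, 37.6 and 37.1 FPKM in HCD 1 to HCD 3 and 34.9, 37.1 and 35.4 FPKM in ND 1 to ND 3, with HCD 3 marginally under ND 2. Acadl contributed the largest value to the mitochondrial sums.

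**Figure D3:**
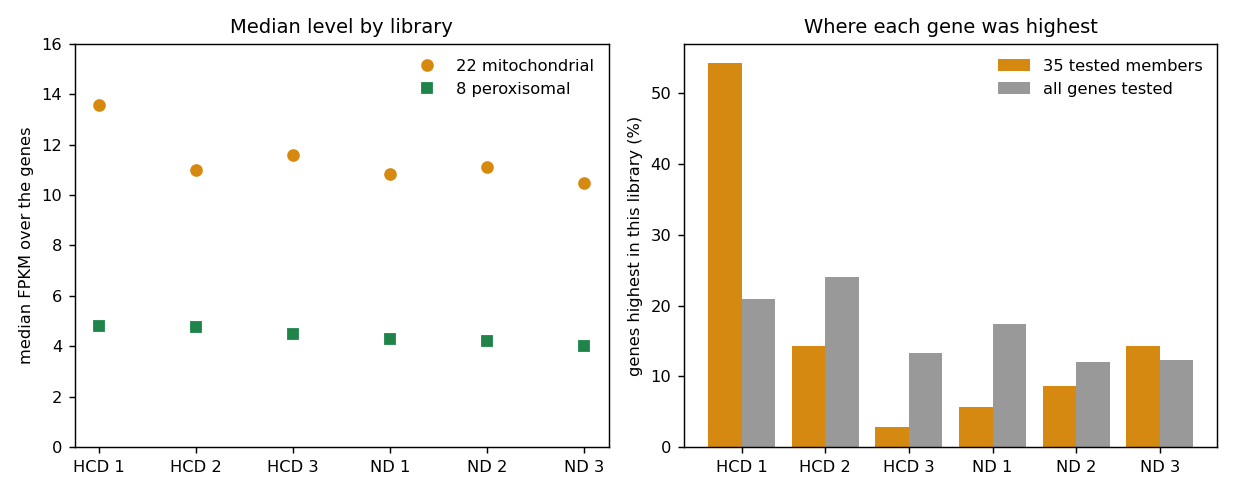
Left: median FPKM of the 22 mitochondrial and 8 peroxisomal genes in each library. Right: share of genes whose highest value fell in each library, for the 35 tested members and for all 13417 tested genes. The mitochondrial median is above the peroxisomal one throughout, and 54.3% of members were highest in HCD 1, against 20.9% of all tested genes.

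Among the peroxisomal genes, Crot, the carnitine octanoyltransferase that exports shortened chains (ENSMUSG00000003623, mm10 chr5:8966033-8997324), was at 6.601, 6.15 and 5.79 FPKM in HCD 1 to HCD 3 and at 5.61, 5.05 and 5.15 FPKM in ND 1 to ND 3. The groups did not overlap, with HCD 3 close above ND 1. The difference was 0.20 (SE 0.071, 95% interval 0.02 to 0.37, limma adjusted p = 0.794), and it was 0.13 without HCD 1 and ND 2 together. Abcd3, the fatty acyl-CoA importer of the peroxisomal membrane, was at 4.32, 4.53 and 3.74 FPKM in HCD 1 to HCD 3 and at 3.64, 3.77 and 3.21 FPKM in ND 1 to ND 3, a difference of 0.19 (SE 0.089, limma adjusted p = 0.794) in which HCD 3 lay below ND 2.

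The enzymes inside the peroxisome differed more from each other than between diets. Hsd17b4, the D-bifunctional protein, was at 16.1, 13.9 and 14.2 FPKM in HCD 1 to HCD 3 and at 12.8, 14.9 and 14.0 FPKM in ND 1 to ND 3. Ehhadh, the L-bifunctional protein for the same steps, averaged 1.14 ± 0.225 FPKM in HCD and 1.16 ± 0.0422 FPKM in ND (SD, n = 3 each), so the D form predominated. Of the acyl-CoA oxidases, Acox3 was at 1.51 ± 0.0620 and 1.44 ± 0.147 FPKM in HCD and ND (SD, n = 3 each). Acox2, which acts on bile acid precursors, was at 0.0608, 0.0303 and 0.246 FPKM in HCD 1 to HCD 3 and at 0.0812, 0.173 and 0.120 FPKM in ND 1 to ND 3, about 2 to 19 fragments per library.

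Acaa1a, the peroxisomal thiolase, averaged 5.51 ± 0.154 FPKM in HCD and 5.52 ± 0.337 FPKM in ND, and Decr2, the peroxisomal dienoyl-CoA reductase, 5.15 ± 0.171 and 4.81 ± 0.162 FPKM (SD, n = 3 each). Acaa1a is uncertain, because 17.1% of the 50-base stretches of its transcripts occur in other genes, mostly its copy Acaa1b. Acaa1b was at 0.390, 0.367 and 0.316 FPKM in HCD 1 to HCD 3 and at 0.212, 0.185 and 0.235 FPKM in ND 1 to ND 3, below the level for testing, with all HCD libraries above all ND libraries.

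The ketone body members lie on the shared and the reversible steps. Acat1, the mitochondrial acetoacetyl-CoA thiolase, was at 10.6, 9.15 and 10.1 FPKM in HCD 1 to HCD 3 and at 9.34, 9.68 and 8.49 FPKM in ND 1 to ND 3. Bdh1, which interconverts acetoacetate and beta-hydroxybutyrate, was at 5.30, 2.50 and 3.94 FPKM in HCD 1 to HCD 3 and at 3.69, 3.39 and 2.39 FPKM in ND 1 to ND 3. HCD 1 held the highest Bdh1 value and HCD 2 lay below ND 1 and ND 2. Its difference of 0.22 (95% interval -0.35 to 0.79) was 0.02 without HCD 1, and 13.7% of its exon bases are shared on the opposite strand with Gm15743.

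Ketone use was represented by a gene outside the 37. Oxct1, the transferase that activates acetoacetate for burning and is low in normal hepatocytes, was at 36.8, 35.2 and 35.8 FPKM in HCD 1 to HCD 3 and at 33.9, 34.3 and 30.1 FPKM in ND 1 to ND 3. The Oxct1 groups did not overlap, with a difference of 0.13 (SE 0.065, limma adjusted p = 0.794), and 12.6% of its exon bases are shared on the opposite strand with another gene.

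Pdk4, the kinase that switches off pyruvate dehydrogenase when fat is burned (ENSMUSG00000019577, mm10 chr6:5483351-5496309), varied most of the tested members. It was at 15.6, 8.10 and 6.67 FPKM in HCD 1 to HCD 3 and at 4.05, 10.4 and 5.004 FPKM in ND 1 to ND 3, a difference of 0.58 with a 95% interval from -0.38 to 1.54 (limma adjusted p = 0.795). The groups overlapped, as ND 2 exceeded HCD 2 and HCD 3. The highest values fell in HCD 1, ND 2 and HCD 2, which also had the highest muscle marker sums (973, 830 and 99.1 FPKM). Among the remaining libraries, HCD 3 had 6.67 FPKM of Pdk4 with a muscle sum of 7.74 FPKM, and ND 3 and ND 1 had 5.004 and 4.05 FPKM with 14.7 and 6.53 FPKM. The difference was 0.25 without HCD 1, 0.93 without ND 2, 0.60 without both, and 0.41 with the muscle marker level as a covariate. The part of muscle RNA in the Pdk4 level was not tested.

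**Figure D4:**
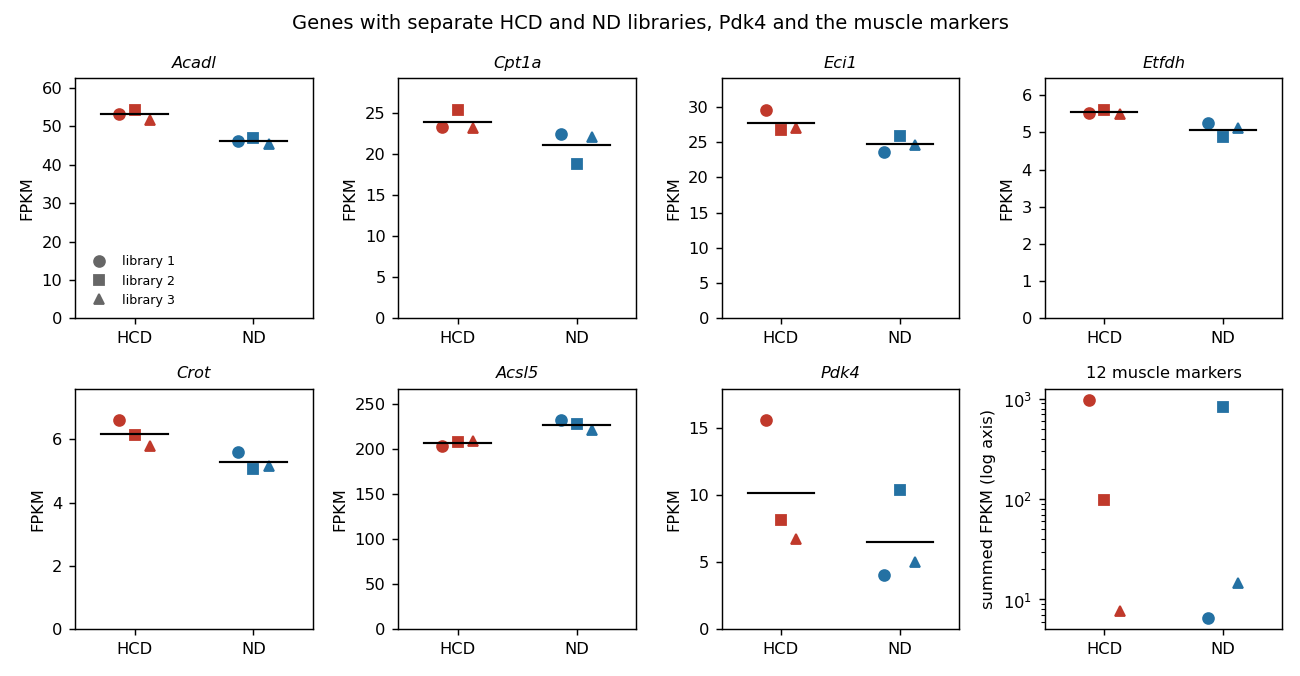
FPKM by library for the 6 members whose HCD and ND libraries did not overlap and for Pdk4 (lines mark means of 3 libraries, axes start at 0), and the summed FPKM of 12 muscle markers (log axis). Acadl has the clearest gap, between 51.8 and 46.9 FPKM, and HCD 1 and ND 2 lead both the Pdk4 and the muscle panels.

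HCD 1 was the highest library for 19 of the 35 tested members (54.3%), where it was the highest for 20.9% of all tested genes. ND 2, with nearly as much muscle RNA, was the highest for 3 members (8.57%, against 12.1% of all tested genes) and the lowest for 8 (22.9%, against 10.6%). Markers of some other cell types also had mostly higher means in HCD, with 0 called. These were 12 of 12 muscle markers (median difference 0.75), 7 of 8 macrophage markers (0.47), 7 of 7 T cell markers (0.68) and 5 of 5 endothelial markers (0.35). Fibroblast markers went the other way, with 2 of 7 higher (-0.06). Of the 7 tested hepatocyte and hepatoma markers 3 were higher (-0.01). Summed macrophage markers were at 601, 1006 and 419 FPKM in HCD 1 to HCD 3 and at 255, 608 and 495 FPKM in ND 1 to ND 3. Summed endothelial markers were at 59.2, 106 and 59.9 FPKM in HCD 1 to HCD 3 and at 49.2, 57.9 and 62.0 FPKM in ND 1 to ND 3. The macrophage and endothelial sums overlapped between diets, and both were highest in HCD 2. Summed adipocyte markers were at 18.1 FPKM in HCD 1 and at 5.62 to 24.2 FPKM in the other libraries. Of these markers Ucp1 was at 0 in HCD 1, HCD 3 and ND 1. Lep and Retn were at 0 in HCD 3 and ND 3, and Pck1 and Plin1 in ND 3. Summed T cell markers were at 39.6, 59.2 and 23.0 FPKM in HCD 1 to HCD 3 and at 7.79, 27.9 and 34.4 FPKM in ND 1 to ND 3. HCD 2 was the highest, and HCD 3 lay below ND 2 and ND 3. The part of these cell types in the members' values was not tested. Without HCD 1 and ND 2 together, 24 of 35 members (68.6%) were higher in HCD, against 54.5% of all tested genes, and the median difference of the members was 0.05.

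Of the 54 further fatty acid oxidation and ketone genes found in the table, 36 were tested and 0 called. The HCD mean exceeded the ND mean for 28 (77.8%, against 55.7% of all tested genes) and was under it for 8, with a median difference of 0.05. In 4 of the 36 (11.1%, against 12.1% of all tested genes) the groups did not overlap. All 4 were higher in HCD (5.98% of all tested genes were), among them Oxct1, Phyh and Pecr. Phyh, the hydroxylase that starts alpha-oxidation of phytanic acid, averaged 8.65 ± 0.460 FPKM in HCD and 7.92 ± 0.139 FPKM in ND, and Pecr, a peroxisomal enoyl-CoA reductase, 5.04 ± 0.411 and 4.18 ± 0.154 FPKM (SD, n = 3 each). Among those below the level for testing, Hacl1 was at 0.341 ± 0.0172 FPKM in HCD and 0.459 ± 0.0597 FPKM in ND, and Acad11 at 0.292 ± 0.0312 and 0.379 ± 0.0243 FPKM (SD, n = 3 each), both without overlap and lower in HCD. Acaa1b, also below that level, was without overlap and higher in HCD. The share without overlap over all genes below that level was not computed.

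Peroxisome biogenesis genes showed no lean to HCD: the HCD mean was above the ND mean for 7 of 16 (43.8%, against 55.7% of all tested genes) and below it for 9. Their median difference was -0.01, and their summed level was 53.1 to 56.1 FPKM in HCD and 53.9 to 55.0 FPKM in ND. Pex13, part of the import pore, was the 1 gene without overlap (6.2%, against 12.1% of all tested genes). It was at 5.79 ± 0.0465 FPKM in HCD and 5.32 ± 0.460 FPKM in ND (SD, n = 3 each, limma adjusted p = 0.794).

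Regulators and known targets of PPAR alpha, the receptor that drives this pathway in normal liver, were mixed. Ppara was at 0.0974, 0.186 and 0.174 FPKM in HCD 1 to HCD 3 and at 0.231, 0.0189 and 0.200 FPKM in ND 1 to ND 3. These values are about 2 to 20 fragments per library and lie below the level for testing. The genes of this list with the highest means were Plin2, a lipid droplet protein, at 73.0 ± 7.65 FPKM in HCD and 74.2 ± 5.46 FPKM in ND, and Hilpda, an inhibitor of lipolysis, at 30.9 ± 7.71 and 37.1 ± 6.18 FPKM (SD, n = 3 each). Of the 22 genes, 13 were tested and 0 called, with 8 higher (61.5%, against 55.7% of all tested genes) and 5 lower in HCD. In 1 of the 13 (7.7%, against 12.1% of all tested genes) the groups did not overlap. Ucp2, a mitochondrial carrier, was the 1 gene without overlap, at 33.6, 34.3 and 32.1 FPKM in HCD 1 to HCD 3 and at 28.4, 32.1 and 27.9 FPKM in ND 1 to ND 3 (difference 0.17, SE 0.069, limma adjusted p = 0.794), with HCD 3 and ND 2 nearly equal.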

How the data were processed

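Per the file headers, the deposited values are FPKM, with a column for each tumour. Tools named in the submitters' processing notes, with no roles, are HTSeq, TopHat2 2.0.9, CASAVA 1.8 and edgeR, with the mm10 build. Annotation release and strand use in counting are not given in the sources used here. FPKM values are not counts, so limma 3.58.1 (R 4.3.3) was fitted to log2(FPKM + 1) of the 13417 genes whose mean over 6 libraries reached 0.5 FPKM, with diet as the only term, a variance trend, two-sided tests and Benjamini-Hochberg adjustment over all of them at 0.05. The members and lists were chosen with earlier results of these data known, so counts and medians over them are descriptions. All 37 members could be named. Per-library values are given for members without overlap and for the lowest p and the highest and lowest level of each role. From other lists, genes without overlap were named, with Ppara and Cpt1b, and some genes of that rule are not reported here. Cpt1c, Acaa1b, Plin2 and Hilpda, and some per-library values, were chosen after their values were seen.

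Library sizes were read from the value steps of genes with 1 to 5 fragments, using GENCODE M21 exon lengths. Fragments per gene are approximate. At 2 kb, 1 FPKM corresponded to 40.7 to 52.5 fragments. The tested members had from about 57 fragments (Ehhadh) to about 28989 (Acsl5). Gene positions and overlaps are from GENCODE M21 on GRCm38, the assembly of mm10, and promoter windows are from RefSeq on GRCm38.p6. Alternatives were a pseudocount of 0.1, other filters, scaling factors, the replicate number as a block, a muscle covariate, and libraries left out.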

Additional observations from a re-analysis of the deposited data

How the results depend on the processing

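No member was called in any setting, and the fit called 0 genes in each, except 1 gene, which is no member, without ND 2 (range 0 to 1 with each library left out). The 789 genes past an unadjusted p of 0.05 were 390 without ND 1, 487 without ND 3 and 1274 with no filter, which tests more genes. Other filters and the replicate block cannot change a member's difference, so signs under these settings were bound to stay. With these included, of 280 values of single members under the other alternatives, 273 kept their sign and 7 turned. These were Echs1 under upper-quartile scaling (-0.0012), Acadm with the muscle covariate (0.0019), and, without HCD 1 and ND 2 together, Acaa1a (0.0229), Acsl1 (-0.1318), Cpt2 (-0.0496), Echs1 (-0.0362) and Hsd17b10 (-0.0318). Acadm was -0.0705 and Acads -0.1678 without both.

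With each library left out, 23 of 210 values turned sign, in 14 genes. Their differences ranged from -0.0264 to 0.0411 for Acaa1a, -0.0408 to 0.0334 for Acadm, -0.1348 to 0.0455 for Acads, -0.0622 to 0.0081 for Acadsb, -0.0202 to 0.0695 for Acadvl, -0.0056 to 0.0815 for Acox3, -0.1013 to 0.2281 for Acsl1, -0.1816 to 0.0421 for Acsl3, -0.0312 to 0.169 for Cpt2, -0.0445 to 0.1475 for Crat, -0.054 to 0.074 for Echs1, -0.0975 to 0.0508 for Ehhadh, -0.0257 to 0.1505 for Hsd17b10 and -0.1736 to 0.0342 for Slc25a20. The cause was not tested.

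The median difference ranged from 0.03 to 0.10 for all members, from 0.03 to 0.10 for mitochondrial and from 0.0222 to 0.1072 for peroxisomal members, and 25 to 31 members were higher in HCD. That count was added after seeing the data. The mitochondrial minus peroxisomal gap of 1.19 was 1.35 with a pseudocount of 0.1, and 1.17 to 1.22 with each library left out. The replicate numbers are shared by label only. Same-numbered libraries deviated from their group means with r of -0.19, 0.142 and 0.059, and under the replicate block no gene was called (0 genes), with 753 past an unadjusted p of 0.05 and a lowest adjusted p of 0.794. HCD 1 correlated best with ND 2, HCD 2 with ND 3 and HCD 3 with ND 1. Etfb and Acox2 rest on few fragments, at most 19 in a library, and the value of Etfb is uncertain also for its shared exon bases.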
